A study of Sus scrofa with 8 samples.

Results

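Small leucine-rich proteoglycans are a family of secreted matrix proteins, and 9 of their genes (FMOD, KERA, OMD, ASPN, DCN, BGN, LUM, OGN and PRELP) were followed here in piglet muscle among the 23235 genes of the deposited table. They were chosen by symbol, each matched 1 row, and all 9 passed the filter of a mean of at least 1 FPKM (fragment counts scaled to transcript length and library size), which 9821 genes passed. The melatonin group was given melatonin, 5 mg per kg body weight in 10 mL of sterile saline, by gavage each morning for 23 days. The control group was given saline alone in the same way. Both groups were weaned Duroc x Landrace x Yorkshire piglets aged 28 days, on the same basal diet, with 5 days of adaptation before gavage and 6 animals per group. Poly(A) RNA of the longissimus dorsi, the long muscle of the back, was sequenced in 4 melatonin and 4 control libraries, each taken to be a separate piglet. The labels give only replicate numbers, so p-values measure the spread between these libraries.

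The core proteins of this family are curved stacks of leucine-rich repeats that bind collagen fibrils and set how fibrils grow in width and how they are spaced. Most carry glycosaminoglycan side chains, of chondroitin or dermatan sulfate in some class I members and of keratan sulfate in several class II members. Decorin and biglycan also bind growth factors of the TGF-beta family. In muscle, fibroblasts of the endomysium, perimysium and epimysium make most of these proteins, while fibromodulin and keratocan are abundant in tendon. The genes were set in 2 kinds: FMOD, KERA, OMD and ASPN as tendon-enriched (OMD and ASPN are also known from bone and cartilage), and DCN, BGN, LUM, OGN and PRELP as general stromal.

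Total counts ran from 53471667 to 60629098 per library. Melatonin replicates 1 and 3 stood apart from the other 6 libraries in matrix genes, which was known from earlier work on these data, so results are given with and without them. Both highest FPKM values lay in these libraries for 28.9% of all genes tested. Myofibre markers were present in every library: the summed FPKM of 10 of them (ACTA1, CKM and others) was 103600, 131700, 101700 and 132900 in melatonin replicates 1 to 4, while controls held 119800 to 141300.

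Among the tendon-enriched genes, fibromodulin and keratocan were far higher in melatonin replicates 1 and 3 than in any other library. FMOD, which encodes fibromodulin, a keratan sulfate proteoglycan that binds collagen I (ENSSSCG00000015270, chromosome 9, 64063001 to 64073858, minus strand, Sscrofa11.1), had 453, 7.30, 147 and 5.67 FPKM in melatonin replicates 1 to 4, against 5.60, 5.45, 4.29 and 6.89 FPKM in control replicates 1 to 4. Melatonin replicate 4 lay within the control range and replicate 2 just above it. The counts behind these values were 81760, 1447, 27105 and 1143 in melatonin replicates 1 to 4 and 768 to 1351 in controls. The log2 fold change of melatonin over control was 4.52 ± 1.19 (SE), the 14th highest of all genes tested (edgeR's quasi-likelihood test, adjusted p = 0.440; DESeq2 adjusted p = 0.0316). Without melatonin replicates 1 and 3 it was 0.33 ± 0.21 (edgeR adjusted p = 0.952). In tissue samples of this kind, more cells of a type and more RNA per cell cannot be told apart. The summed FPKM of 10 tendon markers was 611 and 277 in melatonin replicates 1 and 3 and at most 56.8 in any other library, though CILP among them was not higher there. The part of tendon in the values was not tested.

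KERA encodes keratocan, best known from the cornea (ENSSSCG00000000917, chromosome 5, 91796324 to 91802468, plus strand). It had 43.1, 1.33, 15.4 and 0.965 FPKM in melatonin replicates 1 to 4, against 1.20, 0.874, 1.02 and 1.74 FPKM in control replicates 1 to 4. Melatonin replicates 2 and 4 lay inside the control range. The log2 fold change was 3.40 ± 0.99 with all libraries (edgeR adjusted p = 0.440) and 0.045 ± 0.32 without melatonin replicates 1 and 3.

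OMD and ASPN differed less. OMD encodes osteomodulin, a keratan sulfate proteoglycan of bone (ENSSSCG00000008073, chromosome 3, 42142658 to 42154583, minus strand), and had 4.99, 1.11, 2.58 and 0.580 FPKM in melatonin replicates 1 to 4, against 1.56, 0.512, 0.701 and 0.566 FPKM in control replicates 1 to 4. ASPN encodes asporin, which binds collagen and TGF-beta (ENSSSCG00000008072, chromosome 3, 42165561 to 42192813, minus strand), and had 24.1, 3.70, 8.47 and 4.23 FPKM in melatonin replicates 1 to 4, against 8.50, 2.77, 4.55 and 4.27 FPKM in control replicates 1 to 4. Control replicate 1 was the highest control for both, and for ASPN it lay level with melatonin replicate 3. The log2 fold changes were 1.29 ± 0.55 for OMD (edgeR adjusted p = 0.463) and 0.85 ± 0.51 for ASPN (edgeR adjusted p = 0.558). OMD came to 0.67 without melatonin replicate 1 and to 0.14 ± 0.46 without melatonin replicates 1 and 3. ASPN came to 0.074 without melatonin replicate 1 alone and to -0.20 ± 0.36 without melatonin replicates 1 and 3. Both values for all libraries lay within the range of the general stromal genes, so the tendon-enriched genes did not lie apart from the others as a group.

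**Figure D1:**
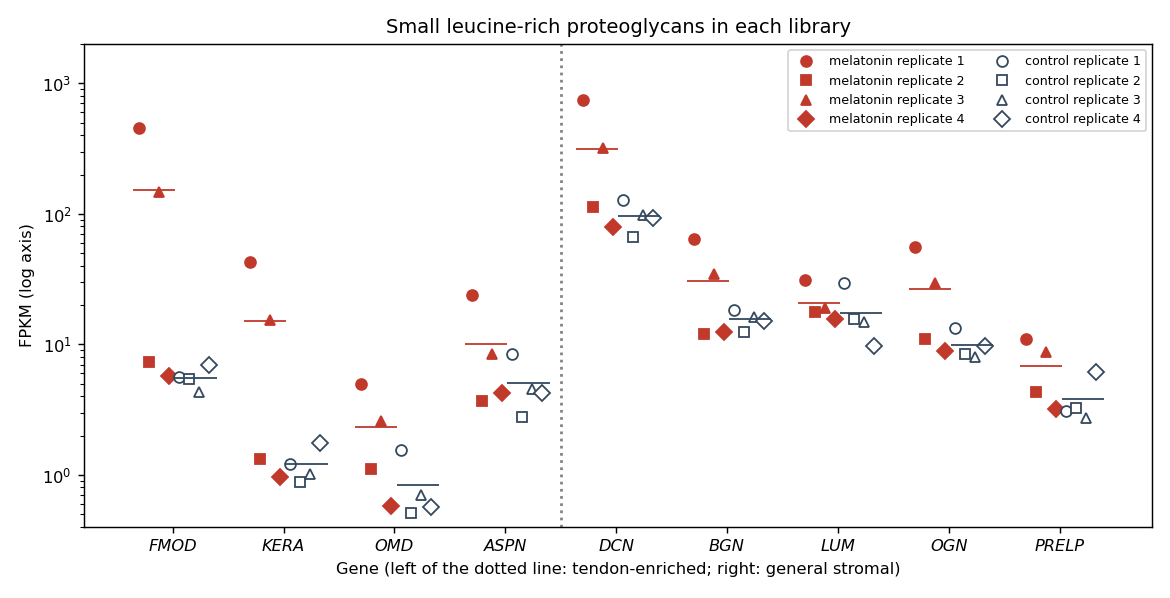
FPKM of the 9 genes on a log axis, with a point per library (filled red, melatonin; open, control; the shape gives the replicate number) and a line at each group mean. Melatonin replicates 1 and 3 stand far above all other points for FMOD (453 and 147 FPKM) and KERA (43.1 and 15.4 FPKM), while for LUM the groups are mixed.

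Of the general stromal genes, decorin was by far the most abundant. DCN, which encodes decorin, the dermatan sulfate proteoglycan of fibril surfaces (ENSSSCG00000000915, chromosome 5, 91682658 to 91714235, plus strand), had 750, 113, 318 and 78.9 FPKM in melatonin replicates 1 to 4, against 127, 66.1, 98.5 and 93.4 FPKM in control replicates 1 to 4. Its log2 fold change was 1.52 ± 0.54 (edgeR adjusted p = 0.446), and 0.12 ± 0.23 without melatonin replicates 1 and 3. OGN encodes osteoglycin, also called mimecan, the class III member (ENSSSCG00000034607, chromosome 3, 42116526 to 42135939, minus strand), and had 56.2, 10.9, 29.6 and 8.81 FPKM in melatonin replicates 1 to 4, against 13.3, 8.45, 8.07 and 9.76 FPKM in control replicates 1 to 4. Its log2 fold change was 1.22 ± 0.45 (edgeR adjusted p = 0.446), and 0.11 ± 0.21 without melatonin replicates 1 and 3. For both genes melatonin replicates 2 and 4 lay among the controls.

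BGN encodes biglycan, the closest relative of decorin (ENSSSCG00000012766, chromosome X, 124275305 to 124295445, plus strand). It had 64.0, 12.0, 34.8 and 12.5 FPKM in melatonin replicates 1 to 4, against 18.4, 12.4, 16.3 and 15.0 FPKM in control replicates 1 to 4. The log2 fold change was 0.81 ± 0.41 (edgeR adjusted p = 0.511) and -0.22 ± 0.16 without melatonin replicates 1 and 3. The last 590 bases of BGN overlap SLC6A8, a creatine transporter gene on the same strand with a mean of 22.0 FPKM, so reads there could have been counted for either gene. PRELP encodes a basic protein that ties basement membranes to collagen (ENSSSCG00000015271, chromosome 9, 64190982 to 64207001, plus strand), and had 11.01, 4.34, 8.68 and 3.19 FPKM in melatonin replicates 1 to 4, against 3.09, 3.24, 2.74 and 6.17 FPKM in control replicates 1 to 4. Control replicate 4 stood above the other controls and above melatonin replicates 2 and 4. The log2 fold change of PRELP was 0.68 ± 0.33 (edgeR adjusted p = 0.496), and 0.092 ± 0.32 without melatonin replicates 1 and 3.

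Lumican showed the smallest difference of the family. LUM, whose keratan sulfate proteoglycan shares a collagen I binding region with fibromodulin (ENSSSCG00000000916, chromosome 5, 91748885 to 91757598, plus strand), had 31.3, 17.7, 18.8 and 15.5 FPKM in melatonin replicates 1 to 4, against 29.5, 15.6, 14.7 and 9.65 FPKM in control replicates 1 to 4. The groups overlapped almost fully, and melatonin replicate 3, at 1.08 times the control mean, lay below control replicate 1. The log2 fold change was 0.16 ± 0.31 (edgeR adjusted p = 0.868). It was -0.017 without melatonin replicate 1, -0.055 without control replicate 4 and 0.50 without control replicate 1, the highest control. Without melatonin replicates 1 and 3 together it was 0.047 ± 0.38.

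As a group, 9 of 9 genes had a positive log2 fold change, with a median of 1.22, against 49.8% of all genes tested and a median of -0.0014. At an unadjusted p under 0.05 in edgeR, 5 of 9 were higher (FMOD, KERA, OMD, DCN and OGN) and 0 lower, against 6.67% of all genes tested higher and 3.84% lower. No gene of the family passed after adjustment over all genes in edgeR, where 0 of 9821 genes were called (0.0%, smallest adjusted p = 0.440) and 1032 had an unadjusted p under 0.05. DESeq2 called 65 genes (0.662%), among them FMOD. The tendon-enriched genes had a median log2 fold change of 2.35 and the general stromal genes of 0.81. In 0 of 9 genes did every melatonin library lie above every control, which held for 1.13% of all genes tested, and in 0 of 9 below every control (1.07%). In 7 of 9, all except ASPN and LUM, both highest FPKM values were those of melatonin replicates 1 and 3, which held for 28.9% of all genes tested.

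Without melatonin replicates 1 and 3, 0 of 9 genes were higher or lower at an unadjusted p under 0.05 in edgeR, against 2.81% of all genes higher and 2.02% lower. The median was then 0.092, and 7 of 9 values were above 0 (47.4% of all genes), with values from -0.22 (BGN) to 0.33 (FMOD). Without melatonin replicate 1 alone, FMOD and KERA were the 2 genes at an unadjusted p under 0.05, against 5.27% of all genes. With the replicate number as a block, which did not pair the libraries, OMD, ASPN, DCN and OGN were the 4 genes at that level, against 6.21% of all genes.

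**Figure D2:**
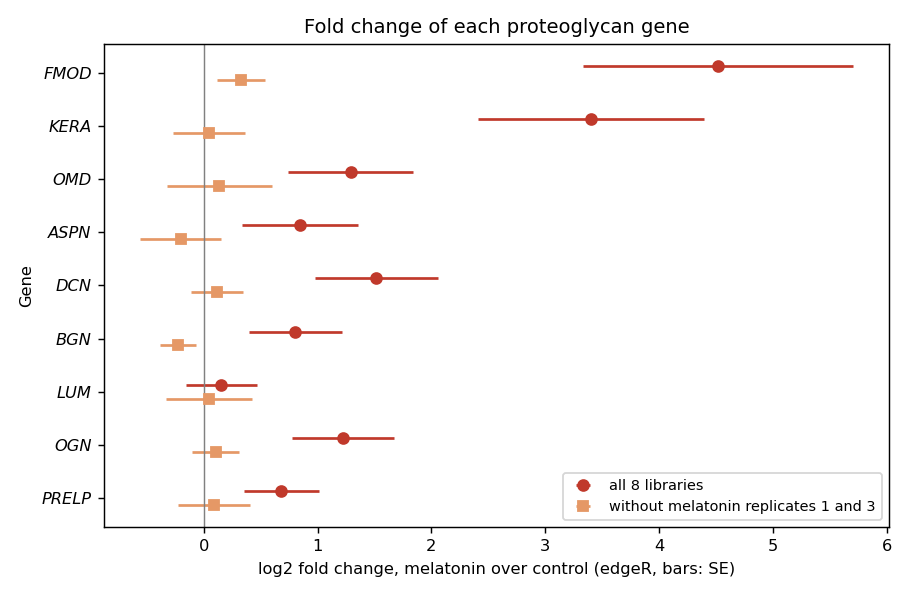
Log2 fold change of melatonin over control for each gene from edgeR, with bars of 1 SE, for all 8 libraries (circles) and without melatonin replicates 1 and 3 (squares). With all libraries FMOD is at 4.52 and KERA at 3.40, without these libraries FMOD is at 0.33 and KERA at 0.045, and the 9 squares lie between -0.22 and 0.33.

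The size of the difference in melatonin replicates 1 and 3 set the genes apart from each other. Over the control mean, FMOD was 81.5-fold and 26.4-fold higher in these libraries, and KERA 35.6-fold and 12.7-fold. DCN was 7.79-fold and 3.30-fold higher. OMD, OGN, ASPN and BGN lay between 4.12-fold and 5.97-fold in melatonin replicate 1 and between 1.69-fold and 3.08-fold in replicate 3. PRELP was 2.89-fold and 2.28-fold higher, and LUM 1.80-fold and 1.08-fold. Replicate 1 was above replicate 3 for each of the 9 genes, by 1.27 times for PRELP and up to 3.08 times for FMOD. In melatonin replicates 2 and 4 all 9 genes lay between 0.695 and 1.33 times the control mean.

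Levels per transcript length ran from DCN to OMD in controls. Mean FPKM was 96.2 ± 24.9 for DCN, 17.4 ± 8.52 for LUM, 15.5 ± 2.50 for BGN, 9.90 ± 2.39 for OGN, 5.56 ± 1.06 for FMOD, 5.02 ± 2.45 for ASPN, 3.81 ± 1.59 for PRELP, 1.21 ± 0.379 for KERA and 0.835 ± 0.491 for OMD (SD, n = 4). Of neighbours in this order, LUM and BGN, BGN and OGN, FMOD and ASPN, ASPN and PRELP, and KERA and OMD overlapped between libraries. DCN and LUM, OGN and FMOD, and PRELP and KERA did not. Within the controls, replicate 1 was highest for 6 genes (OMD, ASPN, DCN, BGN, LUM and OGN) and replicate 4 for FMOD, KERA and PRELP. The coefficient of variation in controls ran from 16.1% for BGN and 19.1% for FMOD to 58.8% for OMD, and among melatonin libraries from 34.1% for LUM to 137% for FMOD.

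The makeup of the family's transcripts differed in the same 2 libraries. The summed FPKM of the 9 genes was 1437, 172, 583 and 130 in melatonin replicates 1 to 4, against 208, 116, 151 and 148 in control replicates 1 to 4. FMOD made up 31.5% and 25.2% of this sum in melatonin replicates 1 and 3, 4.25% and 4.35% in the other melatonin libraries, and between 2.69 and 4.72% in controls. LUM made up 2.18% and 3.23% in melatonin replicates 1 and 3, 10.3% and 11.9% in the other melatonin libraries, and between 6.54 and 14.2% in controls. DCN held the first place in every library, with 52.2 to 66.0% after melatonin and 57.3 to 65.3% in controls. FMOD held the second place in melatonin replicates 1 and 3, and LUM or BGN held it in the other 6 libraries.

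**Figure D3:**
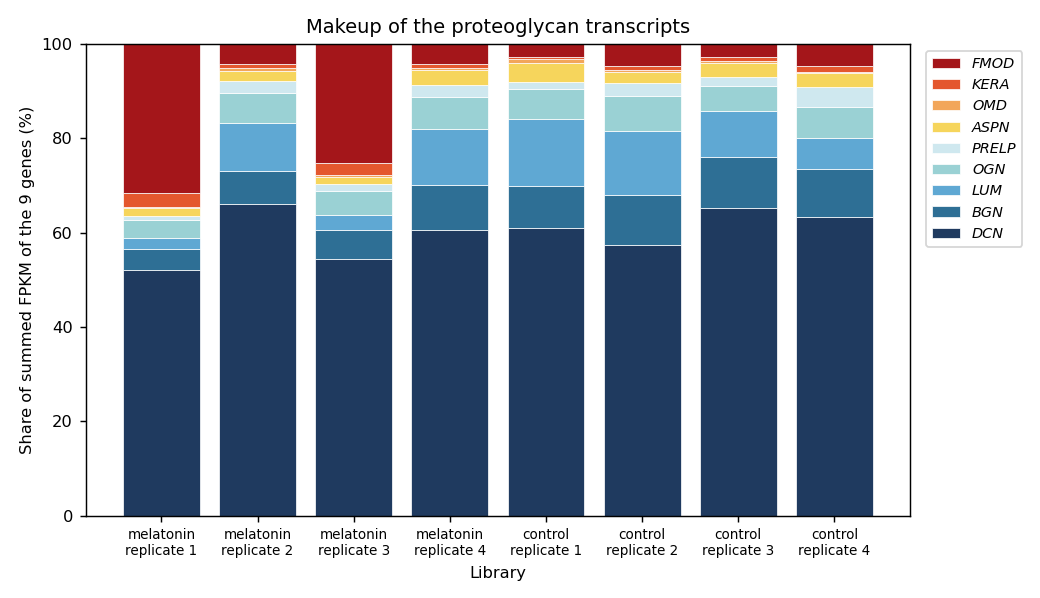
Share of each gene in the summed FPKM of the 9 genes (percent), with a bar per library, melatonin replicates 1 to 4 and then control replicates 1 to 4. FMOD takes 31.5% and 25.2% in melatonin replicates 1 and 3 and under 5% in each of the other 6 bars.

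Ratios within a library do not depend on how libraries are scaled, and 2 were tested. BGN over DCN, the pair of class I proteoglycans with dermatan or chondroitin sulfate chains, was 0.0853, 0.106, 0.109 and 0.158 in melatonin replicates 1 to 4, against 0.145, 0.188, 0.165 and 0.161 in control replicates 1 to 4. Melatonin replicates 1, 2 and 3 lay below every control, and melatonin replicate 4 did not. The log2 ratio averaged -3.16 ± 0.37 after melatonin and -2.61 ± 0.15 in controls (SD, n = 4 each), a difference of -0.55 (two-sided exact permutation p = 0.0571, adjusted p over the 2 ratios = 0.114). FMOD over LUM was 14.5, 0.413, 7.79 and 0.365 in melatonin replicates 1 to 4, against 0.190, 0.350, 0.291 and 0.714 in control replicates 1 to 4. Its log2 ratio averaged 1.02 ± 2.78 after melatonin and -1.54 ± 0.80 in controls (SD, n = 4 each, two-sided exact permutation p = 0.143, adjusted p = 0.143). The smallest p this design allows is 0.0286. Without melatonin replicates 1 and 3 the differences were -0.34 for BGN over DCN (exact permutation p = 0.133) and 0.18 for FMOD over LUM (exact permutation p = 0.733), where 0.0667 is the smallest p that 2 against 4 libraries allow.

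**Figure D4:**
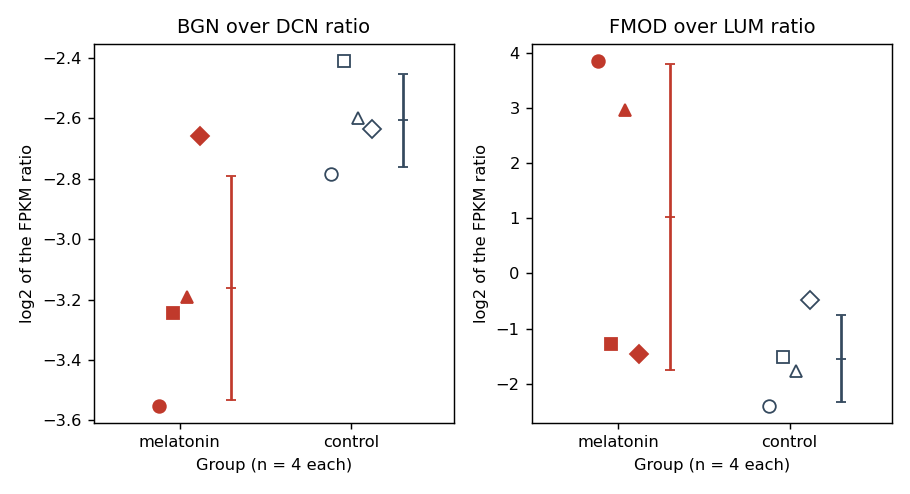
Log2 of the BGN over DCN and of the FMOD over LUM ratio of FPKM in each library (points, shape by replicate), with the group mean and SD beside them. BGN over DCN averages -3.16 after melatonin and -2.61 in controls, and FMOD over LUM is above 0 in melatonin replicates 1 and 3 alone.

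All of these genes but BGN lie beside another member on their chromosome. On chromosome 5, DCN, LUM and KERA follow each other on the plus strand, 34649 bases and 38725 bases apart. LUM, in the middle, was 1.80-fold the control mean in melatonin replicate 1, while DCN before it was 7.79-fold and KERA after it 35.6-fold. EPYC, the epiphycan gene of cartilage that comes next, had 10 counts in melatonin replicate 1 and 0 in the other 7 libraries. On chromosome 9, FMOD and PRELP lie 117123 bases apart on opposite strands, at 81.5-fold and 2.89-fold in melatonin replicate 1. BTG2, a gene that restrains cell division on the other side of FMOD, was at 1.54-fold and 2.54-fold in melatonin replicates 1 and 3, and its log2 difference over all libraries was 0.020 ± 0.65 (edgeR adjusted p = 0.992).

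On chromosome 3, OGN, OMD, ASPN and the related ECM2 stand in a row on the minus strand with gaps of 6718 to 10977 bases. Their values were alike in melatonin replicate 1, at 5.67-fold, 5.97-fold, 4.79-fold and 4.21-fold the control mean. In melatonin replicate 3 OGN and OMD were at 2.99-fold and 3.08-fold, and ASPN and ECM2 at 1.69-fold and 1.85-fold. All 4 lie inside CENPP, a centromere protein gene on the opposite strand with a mean of 1.49 FPKM over the 8 libraries, whose own log2 difference was 0.074 ± 0.32 (edgeR adjusted p = 0.941). The libraries mark strand, but no source states whether the counting used it, so some reads of CENPP could have counted for these genes.

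**Figure D5:**
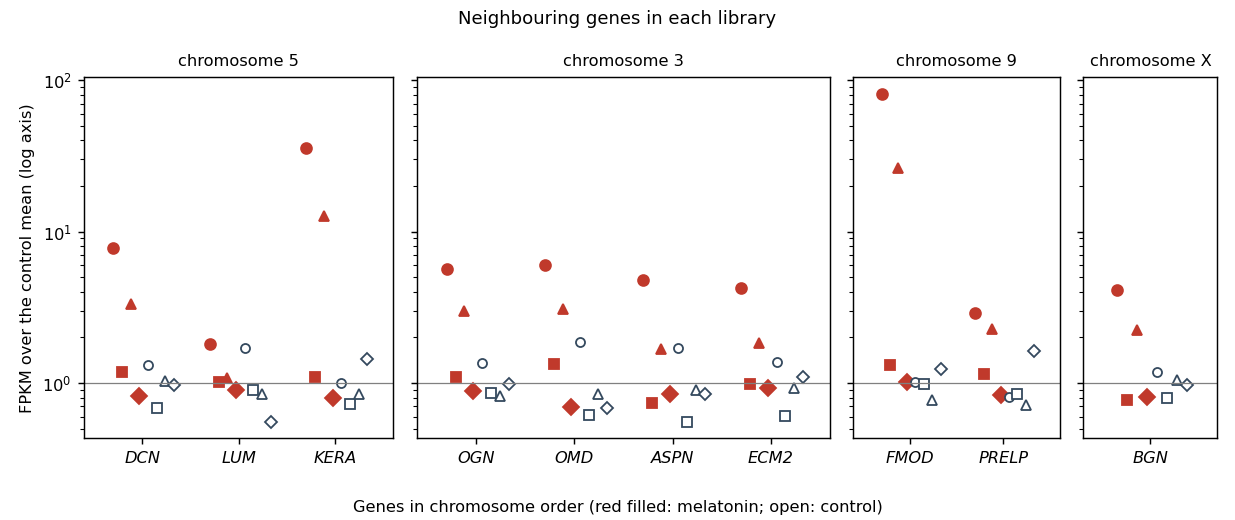
FPKM in each library over the control mean of the same gene (log axis), with genes in chromosome order and a panel per chromosome. LUM, at 1.80-fold and 1.08-fold in melatonin replicates 1 and 3, lies between DCN (7.79-fold and 3.30-fold) and KERA (35.6-fold and 12.7-fold). OGN, OMD, ASPN and ECM2 lie between 4.21-fold and 5.97-fold in melatonin replicate 1 and between 1.69-fold and 3.08-fold in replicate 3.

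The genes whose pattern over the 8 libraries was nearest to each of the leading members were found from the root mean square difference of log2(FPKM + 1), centred per gene. Nearest to DCN were FN1 (fibronectin), COL14A1 (a collagen of fibril surfaces), SPARC (a collagen-binding matrix protein), P3H3 (a collagen prolyl hydroxylase family member) and PAMR1, at 0.207 to 0.238. OGN, at 0.256, was the nearest family member, and FMOD, at 1.29, the farthest. Nearest to FMOD were TNMD (tenomodulin, a tendon membrane protein), COL11A2, COMP (a tendon and cartilage matrix protein), CILP2 and COL11A1, at 0.186 to 0.387. These genes were all nearer than KERA, at 0.717, and KERA itself was nearer to DCN, at 0.598. The measure is not scaled per gene, so it depends on the size of a difference as well as on its order over libraries. TNMD had 139, 1.12, 37.7 and 0.847 FPKM in melatonin replicates 1 to 4, against 0.463, 0.903, 0.657 and 0.736 FPKM in control replicates 1 to 4.

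Lists of related genes are set against the same background as above, 6.67% higher and 3.84% lower. Other leucine-rich repeat genes of the matrix gave 1 of 3 tested genes higher at an unadjusted p under 0.05 in edgeR and 0 lower. CHAD, which encodes chondroadherin of cartilage and tendon, had 33.8, 1.00, 8.93 and 0.513 FPKM in melatonin replicates 1 to 4, against 0.113, 0.187, 0.326 and 0.715 FPKM in control replicates 1 to 4 (log2 fold change 4.75 ± 1.20, edgeR adjusted p = 0.440, DESeq2 adjusted p = 0.0199). ECM2 had a log2 fold change of 0.84 ± 0.39 and PODN, podocan, of -0.12 ± 0.15. EPYC, CHADL, NYX, TSKU and PODNL1 did not pass the filter.

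Enzymes that build the side chains were read as separate lists. Of those that make the linkage region to the core protein, 0 of 5 tested were higher and 0 lower at an unadjusted p under 0.05 in edgeR, with a median log2 fold change of -0.30, and B3GAT3 had 11.4 ± 2.52 FPKM after melatonin and 13.7 ± 2.03 FPKM in controls. Of the chondroitin and dermatan sulfate enzymes, 1 of 7 was higher, CHPF, a chain-polymerising factor, with 10.0, 1.31, 3.96 and 1.13 FPKM in melatonin replicates 1 to 4, while controls held 1.04 to 1.87 FPKM. DSE, the epimerase that makes dermatan sulfate, had a log2 fold change of 0.95 ± 0.54. Of the keratan sulfate enzymes, 0 of 7 were higher or lower, with a median of -0.15.

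Collagens and other fibril proteins that the family binds were higher at an unadjusted p under 0.05 in 7 of 13 tested genes and lower in 0 (edgeR, median 0.89). COL12A1, a collagen on fibril surfaces of tendon and fascia, had 48.6, 0.859, 13.9 and 0.926 FPKM in melatonin replicates 1 to 4, while controls held 0.580 to 1.09 FPKM. COL1A2 had a log2 fold change of 3.07 ± 0.94 and LOX, which cross-links collagen, of 2.64 ± 0.90. Without melatonin replicates 1 and 3 the median of these 13 genes was 0.094. Growth factors bound by the family were higher in 2 of 8 and lower in 1 of 8. CCN2, connective tissue growth factor, had 119, 2.27, 18.7 and 2.83 FPKM in melatonin replicates 1 to 4, while controls held 2.87 to 5.70 FPKM. FGF2 had a log2 fold change of 1.41 ± 0.39 and PDGFB, which was lower, of -0.59 ± 0.23. Without melatonin replicates 1 and 3 the log2 fold changes of CCN2, FGF2 and PDGFB were -0.62, 0.60 and -0.36.

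Receptors that decorin, biglycan or lumican can bind, or that carry the TGF-beta signal, were higher in 5 of 7 at an unadjusted p under 0.05 in edgeR and lower in 0, with a median of 0.65. IGF1R, the receptor of insulin-like growth factor 1, measured 1.67 ± 0.547 FPKM after melatonin and 0.841 ± 0.221 FPKM in controls. Its log2 fold change of 0.91 ± 0.26 was 0.98 without melatonin replicates 1 and 3 (edgeR unadjusted p = 0.0171). It was the 1 of 7 receptors higher at an unadjusted p under 0.05 in that fit, against 2.81% of all genes tested. TGFBR2, the TGF-beta receptor kinase, measured 9.62 ± 5.24 FPKM after melatonin and 5.20 ± 1.10 FPKM in controls. It had 15.8, 6.20, 12.0 and 4.45 FPKM in melatonin replicates 1 to 4, while controls held 3.75 to 6.30 FPKM. The log2 fold change of TGFBR2 was 0.74 ± 0.28, and 0.15 without melatonin replicates 1 and 3. Proteases that cut these core proteins were higher in 1 of 4 (ADAMTS1) and lower in 0. TGF-beta response genes were higher or lower in 0 of 7, with a median of 0.11.

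The summed markers of tendon, of fibroblasts, and of cartilage and bone were highest in melatonin replicates 1 and 3, though not every marker followed. The same held for the summed markers of macrophages and of adipocytes, given below. Of 9 tested tenocyte and muscle-tendon junction markers, 7 were higher at an unadjusted p under 0.05 in edgeR and 0 lower, with a median log2 fold change of 4.61, and -0.082 without melatonin replicates 1 and 3. Their summed FPKM, over 10 genes, was 611, 50.0, 277 and 42.2 in melatonin replicates 1 to 4, while controls held 32.6 to 56.8. CILP in this list did not follow the sum (log2 fold change -0.42 ± 0.38). It had 24.7, 23.0, 11.5 and 25.0 FPKM in melatonin replicates 1 to 4, against 19.7, 40.6, 18.2 and 28.6 FPKM in control replicates 1 to 4. SCX, the tendon transcription factor, reached 0.896 FPKM in melatonin replicate 1 and at most 0.228 FPKM elsewhere. Fibroblast markers summed to 589, 216, 379 and 181 FPKM in melatonin replicates 1 to 4, while controls held 148 to 256, with 2 of 10 higher, PI16 and PDGFRA, and 0 lower. The log2 fold change was above 0 for 8 of 10, and the 2 below it were PDGFRB (-0.21 ± 0.22) and CD34 (-0.16 ± 0.22). Cartilage and bone markers summed to 38.0, 1.96, 12.4 and 1.15 FPKM in melatonin replicates 1 to 4, while controls held 1.34 to 1.79, with 2 of 3 tested higher (COL2A1 and SPP1). COL2A1 alone held 29.5 and 6.76 FPKM of this sum in melatonin replicates 1 and 3. SOX9 did not follow the sum, with 0.119 to 0.186 FPKM in melatonin libraries and 0.0534 to 0.186 FPKM in controls. COL9A1 and RUNX2 were at most 0.0244 and 0.149 FPKM in any library, and IBSP and SP7, both of bone, at most 0.0507 FPKM. ACAN, the aggrecan gene of cartilage, had 1.92 FPKM in melatonin replicate 1 and at most 0.120 FPKM elsewhere.

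Endothelial markers were higher in 1 of 7 (TEK), smooth muscle and pericyte markers in 1 of 6 (TAGLN), and macrophage markers in 0 of 5, Schwann cell markers in 0 of 3, adipocyte markers in 0 of 5 and myofibre markers in 0 of 10, with 0 lower in each of these lists (edgeR unadjusted p under 0.05). Without melatonin replicates 1 and 3, 2.81% of all genes tested were higher at this level. In that fit 1 of 7 receptors, 1 of 9 tenocyte markers, 1 of 10 fibroblast markers and 1 of 6 smooth muscle and pericyte markers were higher, and 0 genes in every other list. Macrophage markers summed to 39.6, 32.5, 48.0 and 12.1 FPKM in melatonin replicates 1 to 4, while controls held 14.5 to 32.6. Adipocyte markers summed to 246, 99.0, 221 and 30.4 FPKM in melatonin replicates 1 to 4, while controls held 41.2 to 153. The part of fibroblasts, cartilage or fat in the values of the proteoglycan genes was not tested either.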

How the data were processed

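The authors deposited a gene table with, per the file headers, a whole-number count and an FPKM value for each gene and library. Per the labels' protocols, poly(A) libraries with dUTP-marked second strands were sequenced. The submitters' processing notes list StringTie, FastQC and DESeq2 with genome build Sscrofa11.1. Which aligner and strand setting were used is not given, and 0 value columns were left unmapped.

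Genes with a mean FPKM of at least 1 were scaled by TMM and tested on counts, under R 4.3.3, with the legacy quasi-likelihood F test of edgeR 4.0.16, no covariate and Benjamini-Hochberg adjustment over all 9821 genes (threshold 0.05). The standard error is the log2 fold change divided by the root of F. The fit was tested on simulated data in which genes varied independently. That test held no libraries that differed together over many genes, as melatonin replicates 1 and 3 did, so it does not cover that feature. Log2 ratios of FPKM were compared by exact permutation over all 70 assignments (Python 3.11.15, NumPy 2.4.6). Alternatives used median-of-ratios scaling, other filters, DESeq2 1.42.0, limma 3.58.1 on log2(FPKM + 1) or log2(FPKM + 0.1), bias-adjusted quasi-likelihood, a replicate block and libraries left out. Named are all 9 genes, up to 4 genes per list with the smallest p, the 5 genes nearest to DCN and to FMOD, and chromosomal neighbours. SCX, ACAN, IBSP, SP7, ACTA1 and CKM fall outside that rule and were chosen as defining markers after their values were seen. SOX9, COL9A1, RUNX2, CILP, PDGFRB and CD34 also fall outside it. They were named after their values were seen, as list members that were low or did not follow the list sums. Genes and lists were chosen with earlier results of these data known. COL6A2, OPTC, THY1, EGFL7, S100B, LRP1, SDC4, CHST4 and CHST6 were not analysed here, as no row bore the symbol.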

Additional observations from a re-analysis of the deposited data

Results flagged for a closer look

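In 22 group-wise comparisons of the 4 libraries of a group, 1 value stood far from the rest of its group: PRELP in control replicate 4, at 6.17 FPKM against 2.74 to 3.24 FPKM in the other controls. Chance flags about 1 in 20 such groups. Without that library the log2 fold change of PRELP was 0.97 (edgeR adjusted p = 0.465), against 0.68 with it.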

How the results depend on the processing

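Across the 17 alternatives, 6 of the 9 genes kept a positive log2 fold change in each fit that included them, and the exceptions were ASPN (-0.20) and BGN (-0.22) without melatonin replicates 1 and 3 together, and LUM without melatonin replicate 1 (-0.017) or control replicate 4 (-0.055). The mean filter of 5 FPKM left OMD out. Genes called over the table numbered 65 in DESeq2 and 0 to 15 with a library left out, the 15 without melatonin replicate 4, where no proteoglycan gene passed. The 5 proteoglycan genes at an unadjusted p under 0.05 (beside 655 of all 9821 genes higher) became 1 in limma at either pseudocount (371 and 375 of all genes), 2 to 7 with a library left out (2 without melatonin replicate 1, beside 518 genes, 3 without control replicate 3, beside 511, and 7 without melatonin replicate 4, beside 1092) and 0 without melatonin replicates 1 and 3 (276). DESeq2 gave 7 (751). The cause of these shifts was not tested. Single libraries moved the log2 fold change of FMOD between 3.02 and 4.92, of KERA between 2.08 and 3.79, of DCN between 0.72 and 1.81, of OMD between 0.67 and 1.75, of OGN between 0.63 and 1.48, of BGN between 0.25 and 1.04, of ASPN between 0.074 and 1.20, of PRELP between 0.42 and 0.97, and of LUM between -0.055 and 0.50. The lowest value came without melatonin replicate 1 for all of these genes except LUM. The BGN over DCN difference ran from -0.72 to -0.42 with a library left out, and FMOD over LUM ran from 1.62 to 3.39. The exact permutation p for BGN over DCN was 0.0286 without melatonin replicate 4, not adjusted over the ratios. Replicate 4 was the only melatonin library not below every control, so leaving it out separated the groups fully and set that p. Replicate numbers shared between groups did not pair the libraries: correlations of same-numbered libraries ran from -0.027 to 0.18, and 2 of 4 melatonin libraries correlated best with their own number. With the replicate block, 4 proteoglycan genes were at an unadjusted p under 0.05 (OMD, ASPN, DCN and OGN, against 6.21% of all genes higher), 0 genes were called, and the ratios gave exact p = 0.125 and 0.375, where 0.125 is the smallest possible. KERA and OMD rested on 114 to 478 counts per control library, and 4 libraries per group limit the precision of every value.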
